A study of Mus musculus with 22 samples.

Results

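The genes that encode the proteins of the cytosolic ribosome were followed across 22 single-cell RNA libraries from mouse tissue and blood. Members were the genes whose symbol begins with Rpl or Rps followed by a digit, together with Rpsa, Rplp0, Rplp1 and Rplp2, without the Rps6k kinase genes and without names that hold -ps. This gave 86 of the 31053 genes in the count tables. Of these, 77 were core members, 46 of the large subunit and 31 of the small subunit. A further 8 were close copies of a core gene, called paralogues below, namely Rpl3l, Rpl7l1, Rpl10l, Rpl22l1, Rpl36al, Rpl39l, Rps27l and Rps27rt. Rps19bp1, which encodes a protein that binds the small subunit protein of Rps19 and is not itself part of the ribosome, entered by its symbol only. Fau and Rack1 encode ribosomal proteins under other symbols and were counted beside the members, not among them.

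The ribosome reads messenger RNA and joins amino acids into protein. Its small subunit decodes the message, its large subunit forms the peptide bonds, and the stalk built by the products of Rplp0, Rplp1 and Rplp2 recruits the translation factors. The mRNAs of ribosomal proteins are short and abundant, and most begin with a C followed by a tract of pyrimidines, the 5′ TOP motif, through which growth signals set how much of them is translated. Because the mRNAs are so abundant, their share of a cell's molecules is one of the largest single features of a single-cell library.

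All mice carried Prom1-CreERT2 and the Rosa26ZSG reporter, so that cells in which the Prom1 promoter was active, and their descendants, fluoresce after recombination. They were wild type for Nalcn (wt) or carried the Nalcn allele of the het or null strain, which is recombined only where the Cre was active. Tissue was not sorted for ZSG, so that most tissue cells need not have recombined it. ntCZCs were sorted as ZSG+, but recombination of the reporter or of Nalcn in them was not measured here. Animals of these groups were 551 to 654 days old. Non-tumour circulating ZSG+ cells (ntCZCs), sorted from peripheral blood, gave 2 wt, 4 het and 4 null libraries. Pooled and hashtagged kidney, liver, lung and stomach with epididymis or uterus, called tissue here, gave 5 wt, 2 het and 2 null libraries, and 1 library held blood mononuclear cells (PBMC) of a wt mouse aged 120 days. For another 2 tissue libraries the genotype in the title and that in the strain label disagreed, and they entered no comparison. Nalcn itself, which encodes a sodium leak channel, gave no UMI in the ntCZC and PBMC libraries and 39, 11 and 24 UMIs in all wt, het and null tissue libraries, too few to check the genotypes.

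Values are counts of unique molecular identifiers (UMIs), each standing for 1 captured RNA molecule read near its 3′ end, so that no length correction was applied. Libraries held 50 to 27857 barcodes, and 95843 of 179929 barcodes had at least 200 genes and at most 25% of UMIs from mitochondrially encoded (mt-) genes. Of these, 51038 were assigned to a class by markers, at least 3 of 6 being required, and the classes are named for those markers. A class entered with a library when it had at least 10 barcodes there. The ntCZC wt replicate 3 library had 11 passing barcodes and 73.5% haemoglobin UMIs and reached no class. Tissue null replicate 3 was labelled female and held 62874 Xist UMIs, but also 1457 UMIs of Y-linked genes where the other female tissue libraries held 1 to 4. Values without it are given beside the genotype comparisons. No pair of libraries shared more than 2.60% of the barcodes of the smaller one. The labels do not state that each library is a separate animal, so p-values measure the spread between libraries, which may be technical. Some ntCZC and tissue libraries shared genotype, replicate number, sex and age, such as those of wt replicate 1. Tests of ntCZC against tissue did not pair them.

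The bases around the first listed start of a few members are shown because the tract there is a known feature of these mRNAs, and because the pair Rps27 and Rps27l and the genes Rps9 and Rpl5 carry results given further on. Windows run from 10 bases before to 20 bases from the first listed start, 5′ to 3′ on the sense strand, from RefSeq on GRCm38.p6. Capitals mark the longest stretch that is a C followed by at least 5 further C or T. A marked stretch can lie before the listed start and so outside the listed transcript, as that of Rps27l does. The windows lie at chr3:90213629-90213658 on the minus strand for Rps27, chr9:66946076-66946105 on the plus strand for Rps27l, chr7:3704031-3704060 on the plus strand for Rps9 and chr5:107900518-107900547 on the plus strand for Rpl5.
Rps27: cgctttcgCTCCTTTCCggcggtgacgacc
Rps27l: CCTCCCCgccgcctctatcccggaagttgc
Rps9: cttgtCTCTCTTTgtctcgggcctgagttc
Rpl5: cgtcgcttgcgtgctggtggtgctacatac

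Among the 66 members with an entry, 34 (51.5%) held such a stretch in this window, against 5958 of 27025 genes (22.0%) and 17 of 69 mitochondrial ribosomal protein genes (24.6%). Only the sense strand was searched, since the motif is one of RNA. A stretch of this kind that could be a base shorter began at the listed start itself in 19.7% of members and 2.49% of all genes. These genes need not be a subset of those above. Rpl5 holds none in this window, which says only that these letters are not there. A listed RefSeq start can differ from that of GENCODE, and the window of Rps15 ended before its GENCODE start and is not shown. The windows of Rpl5 and Rps9 begin after the GENCODE starts of these genes, at chr5:107900502 and chr7:3703993. They therefore do not show the bases at those starts. A second pair shows why counts of one paralogue are uncertain. In windows from 6 bases before the start to 24 from it, capitals mark the run that Rps27, at chr3:90213625-90213654 on the minus strand, shares with Rps27rt, at chr9:114982716-114982745 on the minus strand.
Rps27: ttcgctcCTTTCCGGCGGTGACGACCTCCC
Rps27rt: cccttgCTTTCCGGCGGTGACGACCTCCCt

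The aligned transcripts of these genes were identical over 341 of 341 bases, so a 3′ read could have come from either gene. The transcripts of 4 other pairs differed along their length. Rps27l and Rps27 were 76.4% identical with no shared run over 11 bases, Rpl22l1 and Rpl22 74.2% with a longest run of 26, Rpl3l and Rpl3 74.4% with 22, and Rpl36al and Rpl36a 87.7% with 24. These runs are shorter than a read, although a read can carry mismatches.

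Ribosomal protein mRNAs had their largest mean shares of tissue molecules in dendritic cells and lymphocytes. Dendritic cells gave 23.5% ± 1.99 (SD, n = 8 libraries), B cells 23.3% ± 1.68 (n = 9) and T cells 23.0% ± 3.23 (n = 9). NK cells followed at 19.7% ± 2.90 (n = 7), classical monocytes at 17.7% ± 2.05 (n = 9) and nonclassical monocytes at 16.1% ± 1.35 (n = 7). The lowest classes were neutrophils at 7.46% ± 2.67 (n = 8) and alveolar type 1 cells, the flat cells of the gas exchange surface, at 5.42% ± 2.64 (n = 5, 133 barcodes). The highest class mean was 4.34 times the lowest.

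Epithelial and stromal classes lay between these ends. Epididymal cells gave 15.3% ± 1.53 (n = 6), fibroblasts 15.1% ± 1.68 (n = 8), gastric mucous cells 13.1% ± 3.00 (n = 7) and hepatocytes 12.3% ± 2.85 (n = 6). Alveolar type 2 cells, which secrete surfactant, stood at 11.1% ± 1.79 (n = 6), endothelial cells at 9.99% ± 1.09 (n = 9) and ciliated cells at 7.90% ± 1.96 (n = 8). Proximal tubule cells, which reclaim solutes from the filtrate and are rich in mitochondria, were at 7.55% ± 0.798 (n = 8). Plasma cells, the antibody-secreting descendants of B cells, gave 12.0% ± 3.40 (n = 5) and erythroid cells 8.56% ± 3.40 (n = 8), the latter with a lowest library of 1.58%.

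**Figure D1:**
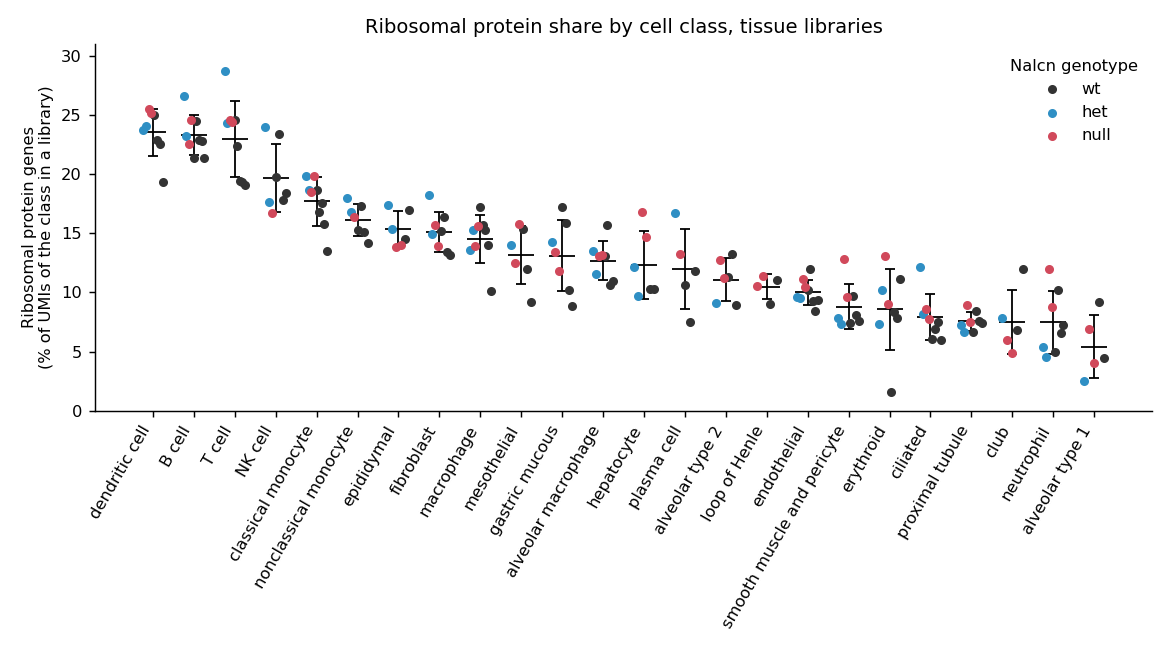
Share of UMIs from the 86 ribosomal protein genes, in percent, in each marker-gated class of the tissue libraries. Each point is 1 library and the bar marks the mean with its SD; dendritic, B and T cells lie near 23%, and alveolar type 1 cells lie lowest at 5.42%.

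Of the 23 pairs of neighbouring classes, 0 differed after adjustment in an exact sign-flip test over libraries holding both. The lowest unadjusted p, 0.0313 (adjusted p = 0.288), was that between classical and nonclassical monocytes. In 9 pairs, with 3 to 5 shared libraries, no p under 0.05 was possible, so the order of those neighbours was not testable. In the other pairs the smallest possible p was at best 0.00391, for B and T cells with 9 libraries. Even that could not pass the adjustment over 23 pairs by itself. The absence of differences therefore does not show that neighbours are alike. Neutrophils exceeded alveolar type 1 cells by 3.30 points and nonclassical monocytes exceeded epididymal cells by 1.10 points, each in 5 of 5 libraries (p = 0.0625, the smallest an exact test of 5 can give). Some pairs further apart in the order kept one direction in each library that held both. The B cell share exceeded that of macrophages by 8.81 percentage points on average and was higher in 9 of 9 libraries, and it exceeded that of plasma cells by 12.3 points in 5 of 5. Classical monocytes exceeded neutrophils by 10.7 points in 8 of 8, fibroblasts exceeded endothelial cells by 5.04 points in 8 of 8, and epididymal cells exceeded proximal tubule cells by 7.77 points in 6 of 6. These pairs were picked from the order and are given without a test.

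The share also moved with the number of genes per barcode inside some classes. In endothelial cells it was 6.79% ± 1.62 in barcodes with 200 to 500 genes (n = 7 libraries) and 11.3% ± 1.31 in those with at least 2000 (n = 8). In B cells the same bins gave 21.7% ± 1.61 (n = 6) and 25.7% ± 1.69 (n = 4), whereas macrophages gave 15.2% ± 2.15 (n = 7) and 13.5% ± 2.03 (n = 6). Barcodes left out for over 25% mt- UMIs had a lower share, from 3.32% to 9.30% of their UMIs in the tissue libraries with a group.

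Within the ribosomal protein pool, the composition varied much less than its size. Each core gene's level in a class was set against the median of all core genes in that class, after centring each gene over classes. Of 1848 such values, 82.5% lay within 0.25 on the log2 scale of that median, and 2 lay beyond 1. The small subunit's part of the core UMIs ranged over 5.16 percentage points between class means, from 43.8% in epididymal cells to 48.9% in nonclassical monocytes.

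The genes that stood furthest from the pool did so mostly in the classes with the lowest shares. Rps9, whose product lies at the mRNA entrance of the small subunit, reached 2892 ± 566 CPM (UMIs of the gene per 1000000 UMIs of the class in a library) in neutrophils (n = 8), 1.11 on the log2 scale above the pool there. Rps27, whose product is a zinc-finger protein of the small subunit, was 0.82 above it in neutrophils. Rps19, one of the genes mutated in Diamond-Blackfan anaemia, was 0.87 above it in alveolar type 2 cells, at 2747 ± 567 CPM (n = 6). On the low side, Rpl13a stood 1.14 below in alveolar type 1 cells and Rps7 stood 0.78 below in the same class, while Rpl27 stood 0.98 below in mesothelial cells. The alveolar type 1 values rest on 133 barcodes in 5 libraries, and the SD of Rpl13a there, 47.3 CPM, was close to its mean of 56.6 CPM. That of Rps7 there, 371 CPM, was likewise close to its mean of 393 CPM. Rpl27 in mesothelial cells also varied widely, at 141 ± 93.3 CPM (n = 6).

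Few other genes followed the pool across classes. Over the 24 class means, the log2 level of each of 5893 genes was correlated with the log2 ribosomal protein share, a description only, since members are part of that share and all points come from the same libraries. The median r was 0.956 over members and 0.0907 over other genes, and 77 of the 100 highest were members. The highest non-members were Rack1 (r = 0.963), which encodes a scaffold bound to the small subunit head, and Eef1b2 (r = 0.949), an exchange factor for elongation factor 1. Eif3f, a subunit of an initiation factor, followed at 0.936. Of the 30 listed genes of ribosome assembly, 13 had a value, from 0.152 to 0.673 with a median of 0.446 and none among the highest 100. The highest of them was Fbl, the methyltransferase of ribosomal RNA. Assembly genes outside that list could be higher, such as Nsa2 at 0.912 and Npm1, counted with the translation genes, at 0.879. The 16 translation genes had a median of 0.859.

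Gene by gene, most ribosomal protein mRNAs were higher in B cells than in macrophages of the same tissue libraries. Of 83 members tested, 75 rose and 1 fell at an adjusted p under 0.05 (edgeR quasi-likelihood test with library as a block and Benjamini-Hochberg adjustment, 9 libraries). Over all 6433 genes, 60.3% were called, 30.4% higher and 29.9% lower. The median log2 difference was 0.61 over core members and 0.03 over all genes. With core members as library size, which centres them near 0 by construction, 15 members rose and 12 fell, against 8.15% of all genes higher and 54.7% lower. That scaling lowered the median of all genes by 0.60, so a gene that rose by less turns negative under it, and such a turn says nothing further about the gene.

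Rps27 rose by 1.39 as log2 (adjusted p = 4.65e-08, edgeR), from 1773 ± 407 CPM in macrophages to 4844 ± 846 CPM in B cells (n = 9 each). The lowest, median and highest B cell libraries held 3851, 4566 and 6426 CPM and the macrophage libraries 1249, 1690 and 2507 CPM, without overlap. Its near-identical copy Rps27rt rose by 1.12, Rpl27 by 0.99, Rps19 by 0.96 and Rpsa, which encodes a small subunit protein also known as a laminin receptor, by 0.90. The 3 stalk genes all rose, between 0.35 and 0.72, with Rplp0 and Rplp1 among the genes that this scaling turns, to −0.08 and −0.27. Rps27l was the single member that fell, by 0.93 (adjusted p = 3.54e-04, edgeR), from 308 ± 89.3 CPM in macrophages to 172 ± 78.8 CPM in B cells, with libraries overlapping. The companion lists moved unequally. Of 16 translation genes 12 rose and 0 fell, and of 23 tested assembly genes 15 rose and 0 fell. Of 68 mitochondrial ribosomal protein genes, which encode the separate ribosome of that organelle, 3 rose and 12 fell. Fau rose by 0.52 and Rack1 by 0.45 on the log2 scale, both less than the shift of 0.60 and so negative under the scaling on core members.

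Fewer members differed between T and B cells. Of 83 members, 0 were higher and 11 were lower in T cells (edgeR, 9 libraries), where 32.7% of 5780 genes were called and 15.1% were lower. The median difference was −0.06 over core members and −0.01 over all genes. With core members as library size, 9 were higher and 7 lower, against 1039 and 622 of the 5780 genes. Rps27 was lower by 0.37 on the log2 scale (adjusted p = 6.19e-04, edgeR) and Rps19 by 0.37 (adjusted p = 5.91e-04, edgeR). Rps19bp1 was lower by 0.56, at 16.9 ± 9.61 CPM against 27.5 ± 6.96 CPM (n = 9 each). No member's libraries were fully separate between the classes, against 6.59% of all genes tested. Leaving out tissue het replicate 2, null replicate 3 or wt replicate 3 left 7, 7 and 6 members called. The shares over all genes in those fits are not given here.

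In proximal tubule against endothelial cells, the median difference of ribosomal protein genes lay near that of all genes. Of 83 members, 12 rose and 44 fell (edgeR, 8 libraries), while 71.1% of 10329 genes were called, 29.4% higher and 41.7% lower. The median was −0.27 over core members and −0.22 over all genes. Single members moved over a narrower range, −0.70 to 1.24 on the log2 scale against −8.88 to 6.79 over all genes. The set of all genes is far larger and holds markers that defined the classes, so these ranges are not like for like. Libraries did not overlap for 10 members (12.0%), against 40.3% of all genes. With core members as library size, 22 rose and 14 fell, against 36.6% and 32.3% of all genes. Rps14 fell by 0.70 (adjusted p = 2.98e-06, edgeR), at 1368 ± 218 CPM against 2471 ± 322 CPM, with no overlap between classes (n = 8 each). Rps27 fell by 0.68 and Rps21 by 0.62. Among the 44 were Rplp1 and Rplp2, whereas Rplp0, the base of the stalk, rose by 0.41.

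The risers included a pair of paralogues. Rps27l rose by 1.24 (adjusted p = 5.34e-08, edgeR), at 467 ± 95.9 CPM in proximal tubule cells, with a lowest library of 338, against 220 ± 47.0 CPM in endothelial cells, with a highest library of 307. Rpl36al rose by 0.95 and Rps19bp1 by 0.59. Of 76 mitochondrial ribosomal protein genes 72 rose and 0 fell, with a median of 0.94.

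The balance between a paralogue and its partner therefore differed by class. It is given as the paralogue's percent of the pair's UMIs, which needs no scaling of libraries. Rps27l, whose product replaces that of Rps27 in the small subunit and whose gene is a target of p53, had its lowest parts in lymphocytes and its highest in epithelial classes. It held 3.51% ± 1.73 of the pair in B cells (n = 9), 4.58% ± 1.98 in T cells (n = 9) and 5.47% ± 2.72 in NK cells (n = 7). It held 34.9% ± 5.36 in proximal tubule cells (n = 8), 33.9% ± 14.8 in hepatocytes (n = 6) and 27.4% ± 5.61 in ciliated cells (n = 8). The proximal tubule libraries ran from 25.9% to 43.2% and the B cell libraries from 1.22% to 6.24%, without overlap. Both partners contributed, since Rps27 ran from 884 CPM in proximal tubule to 4844 CPM in B cells and Rps27l from 139 CPM in neutrophils to 746 CPM in hepatocytes, as class means.

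**Figure D2:**
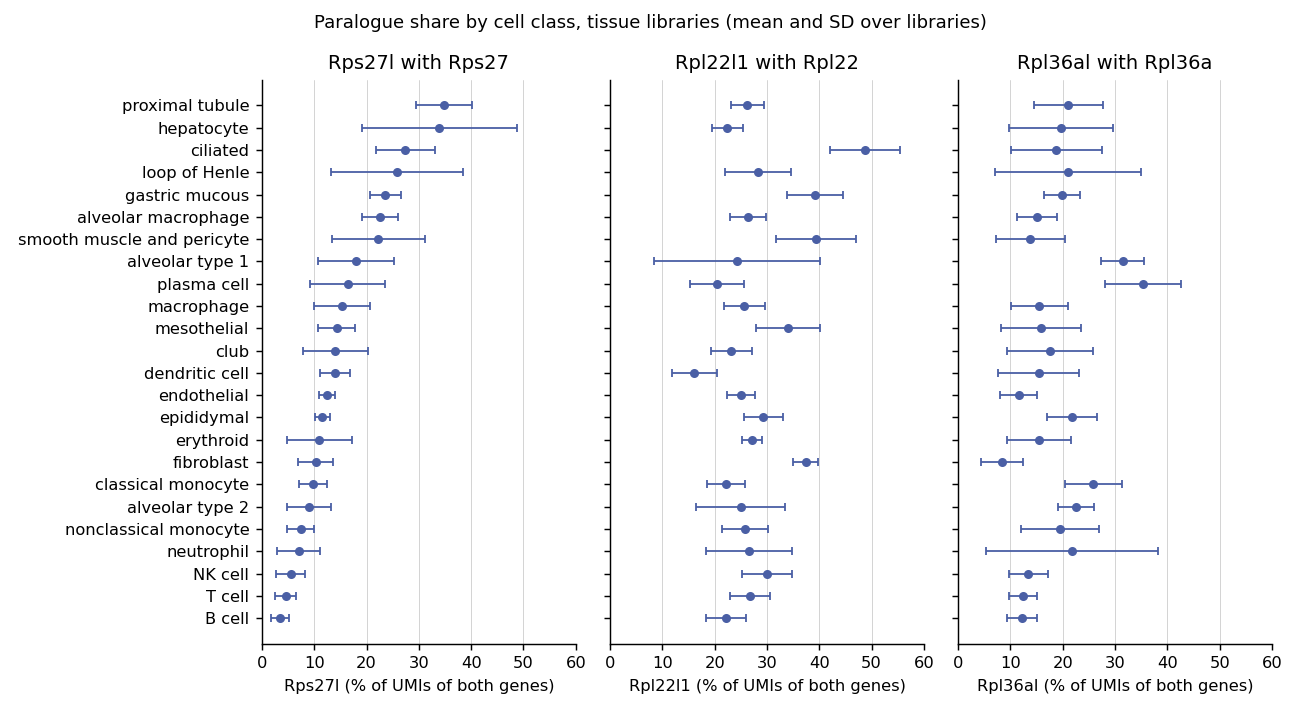
Percent of a pair's UMIs that come from the paralogue, by marker-gated tissue class, for the pairs Rps27l with Rps27, Rpl22l1 with Rpl22 and Rpl36al with Rpl36a. Each point is the mean over the libraries of a class and the bar its SD. Rps27l spans 3.51% to 34.9% between class means and Rpl22l1 16.1% to 48.7%.

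Rpl22l1, whose product takes the place of that of Rpl22 and is known to be held down by it, had its highest part in ciliated cells at 48.7% ± 6.71 (n = 8). Smooth muscle and pericytes gave 39.4% ± 7.65 (n = 8), gastric mucous cells 39.2% ± 5.40 (n = 7) and fibroblasts 37.4% ± 2.36 (n = 8). The lowest class was dendritic cells at 16.1% ± 4.36 (n = 8), and the median class mean was 26.3%. Ciliated libraries ran from 37.1% to 57.3% and dendritic cell libraries from 9.09% to 22.9%. Rpl22l1 was higher in B cells than in macrophages by 0.46 on the log2 scale (adjusted p = 0.00308, edgeR), less than the shift of 0.60 under the scaling on core members, where it stood at −0.16.

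Rpl36al had its highest part in plasma cells, at 35.3% ± 7.35 (n = 5), against 12.2% ± 2.92 in B cells (n = 9). Classical monocytes gave 25.8% ± 5.44 (n = 9), alveolar type 1 cells 31.4% ± 4.08 (n = 5) and fibroblasts 8.36% ± 3.99 (n = 8). Rps27rt stayed between 2.01% and 3.48% of its pair in class means, but the identity of the transcripts leaves its counts uncertain. Rpl7l1 held 1.22% to 9.06% of its pair. Rpl10l, known from the testis, gave 8 UMIs in all tissue libraries with a group.

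Rpl3l, known as the form of Rpl3 in striated muscle, had its highest levels in some myeloid classes, although many of its UMIs lay in other or unassigned barcodes. Alveolar macrophages of tissue held 600 of its UMIs, 18.9 ± 8.03 CPM, with 9.02 to 32.6 CPM in 8 of 8 libraries. ntCZC nonclassical monocytes held 164 UMIs, 50.3 ± 23.1 CPM, with 24.2 to 83.1 CPM in 7 of 7 libraries. Nonclassical monocytes of tissue held 18 UMIs, 8.46 ± 8.80 CPM, with a highest library of 22.1 CPM, below the lowest ntCZC library. The B cells of the 8 ntCZC libraries held 0, which allows up to 3 counts in all. Rpl3l was too low for the gene tests between ntCZC and tissue, so these levels have no test. Rps4l is not analysed here.

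The next comparison set ntCZCs against the same classes in tissue. B cells had a higher ribosomal protein share among ntCZCs, at 30.2% ± 4.39 (n = 8, 255 barcodes), than in tissue, at 23.3% ± 1.68 (n = 9, 4851 barcodes). The lowest, median and highest libraries were 23.0%, 29.3% and 36.5% against 21.4%, 22.9% and 26.6%, so the ranges overlapped. Only the single wt ntCZC library with B cells, at 23.0% on 10 barcodes, lay inside the tissue range. The lowest het and null ntCZC libraries held 27.3% and 28.8%. The difference of 6.92 points gave p = 5.76e-04 in a two-sided exact permutation test over libraries (adjusted p = 0.00115 over both classes). Outside mt- UMIs the difference was 4.27 points (p = 0.0217, exact permutation test), with mt- genes at 4.61% of UMIs in ntCZC and 14.99% in tissue B cells. The median B cell barcode held 2938 UMIs among ntCZCs and 1544.5 in tissue, so depth moved with the comparison as well, and its part in the difference was not tested.

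Nonclassical monocytes, the patrolling monocytes of blood, gave 17.8% ± 1.55 among ntCZCs (n = 7, 850 barcodes) and 16.1% ± 1.35 in tissue (n = 7, 542 barcodes). The difference of 1.68 points did not pass (p = 0.0501, two-sided exact permutation test) and was −0.340 points outside mt- UMIs. Mt- genes took 2.05% and 12.95% of UMIs and the median barcode held 5071 and 2219 UMIs. Without ntCZC wt replicate 1, which had the lowest ntCZC value of 15.2%, the difference was 2.12 points (p = 0.0105, exact permutation test). Leaving out tissue wt replicate 2 or tissue het replicate 1 also brought p under 0.05.

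**Figure D3:**
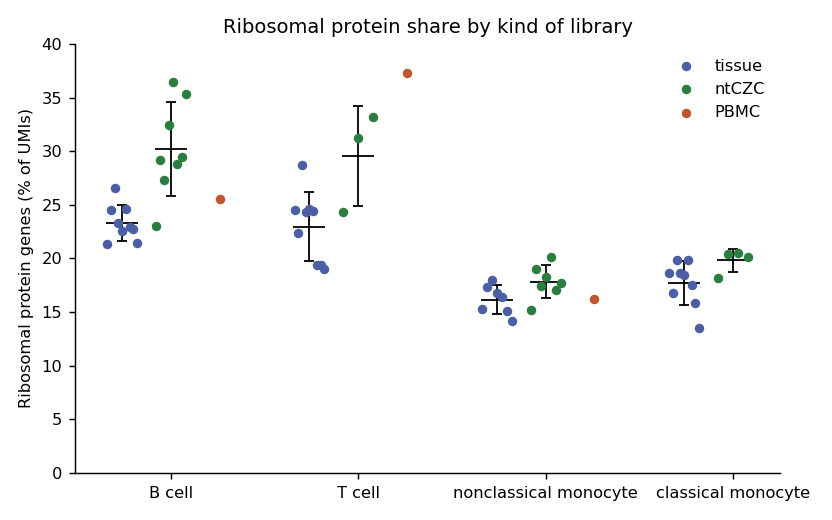
Share of UMIs from the ribosomal protein genes, in percent, by class in ntCZC, tissue and PBMC libraries. Points are libraries and bars are means with SD; ntCZC B cells average 30.2% against 23.3% in tissue, and nonclassical monocytes 17.8% against 16.1%.

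Other ntCZC classes had fewer libraries and were not tested. T cells gave 29.6% ± 4.63 (n = 3), classical monocytes 19.8% ± 1.09 (n = 4) and macrophages 17.7% ± 2.62 (n = 4). Neutrophils, with enough barcodes in 1 ntCZC library only, gave 3.22%, below the lowest tissue library of 4.50%. The PBMC library gave 37.3% in T cells, with an exact 95% binomial interval of 37.2 to 37.4 that covers counting error only. It gave 25.5% in B cells, 17.1% in NK cells, 16.2% in nonclassical monocytes and 5.30% in neutrophils. The source of the blood or tissue, the ZSG sort, the preparation of the cells and the mt- share cannot be told apart in this comparison. Nalcn genotype was uneven as well, and its part was not tested. B cells came from 1 wt, 4 het and 3 null ntCZC libraries and from 5 wt, 2 het and 2 null tissue libraries. The wt ntCZC library gave 23.0% in B cells, against means of 31.1% in het and 31.6% in null libraries. It gave 24.3% in T cells, against 31.2% and 33.2% (1 library each), and 15.2% in nonclassical monocytes, against means of 18.2% and 18.3%.

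The gene tests between ntCZC and tissue used the same libraries, so both classes are given side by side. In B cells 45 of 82 members rose and 11 fell (edgeR with sex as a covariate), where 44.5% of 2743 genes were called, 22.4% higher and 22.1% lower. The median was 0.48 over core members and 0.00 over all genes. With core members as library size 24 rose and 21 fell, against 6.27% and 37.6% of all genes, the median of which that scaling lowered by 0.45. Without the filter on low counts 14 rose and 11 fell, against 576 and 2805 of 18740 genes. In nonclassical monocytes 8 of 82 rose and 22 fell, where 26.9% of 3783 genes were called, 10.8% higher and 16.2% lower. The median there was −0.06 over core members and 0.01 over all genes, and core members as library size gave 21 higher and 21 lower, against 15.6% and 10.0% of all genes. Without the filter on low counts 18 rose and 14 fell, against 5.30% and 14.6% of 15856 genes. Without ntCZC wt replicate 1, 20 rose and 21 fell, against 14.1% and 16.3% of 3168 genes. Libraries did not overlap for 23 members (28.0%) in B cells, against 7.77% of all genes tested, and for 16 (19.5%) in nonclassical monocytes, against 9.62%.

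The largest falls were those of Rps15, Rpl23a and Rpl5 in both classes. Rps15 encodes a small subunit protein near the decoding site, Rpl23a a large subunit protein at the exit of the peptide tunnel, and Rpl5 a partner of the 5S RNA that also binds MDM2. Rps15 lies at chr10:80292453-80294114 on the plus strand and Rpl23a at chr11:78180932-78183584 on the minus strand (GRCm38, GENCODE). In B cells Rps15 fell by 2.26 (log2, edgeR adjusted p = 5.12e-10), to 517 ± 76.9 CPM (n = 8) from 2491 ± 317 CPM in tissue (n = 9). Its lowest, median and highest libraries held 407, 523 and 645 CPM among ntCZCs and 2238, 2354 and 3164 CPM in tissue. In nonclassical monocytes Rps15 fell by 2.40 (adjusted p = 1.78e-13, edgeR), to 396 ± 45.1 CPM from 1744 ± 125 CPM (n = 7 each). The groups were far apart in both classes.

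Rpl23a fell by 2.20 in B cells (adjusted p = 2.20e-08, edgeR), with 229 to 623 CPM against 1516 to 2189 CPM. It fell by 2.09 in nonclassical monocytes (adjusted p = 1.33e-10, edgeR), with 258 to 403 CPM against 839 to 1512 CPM. Rpl5 fell by 1.33 in B cells (adjusted p = 1.25e-05, edgeR), with 503 to 1006 CPM against 1518 to 2674 CPM. In nonclassical monocytes Rpl5 fell by 1.79 (adjusted p = 1.95e-08, edgeR), with 415 to 663 CPM against 980 to 2389 CPM. For each of these genes all ntCZC libraries lay below all tissue libraries in both classes. The 3 ntCZC libraries with T cells also lay below all 9 tissue libraries, Rpl23a at 364 to 480 CPM against 1277 to 2644 CPM and Rpl5 at 749 to 883 CPM against 1460 to 3374 CPM.

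The PBMC library, also of blood but not sorted for ZSG, lay with the tissue libraries or above them. Its B cells held 3286 CPM of Rps15, 1892 of Rpl23a and 2635 of Rpl5, and its T cells held 4368, 3215 and 5139 CPM. Its 15 nonclassical monocyte barcodes held 2153, 1341 and 1976 CPM. It is 1 library of a younger mouse. The ntCZC ranges above hold wt, het and null libraries, and the sort, the preparation and the age cannot be told apart as the difference from PBMC. The matrix headers of all 22 libraries name Cell Ranger 3.0.2 and their gene lists were identical, but the submitters' notes name version 2.1.1, and whether every library was aligned to the same reference was not tested.

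**Figure D4:**
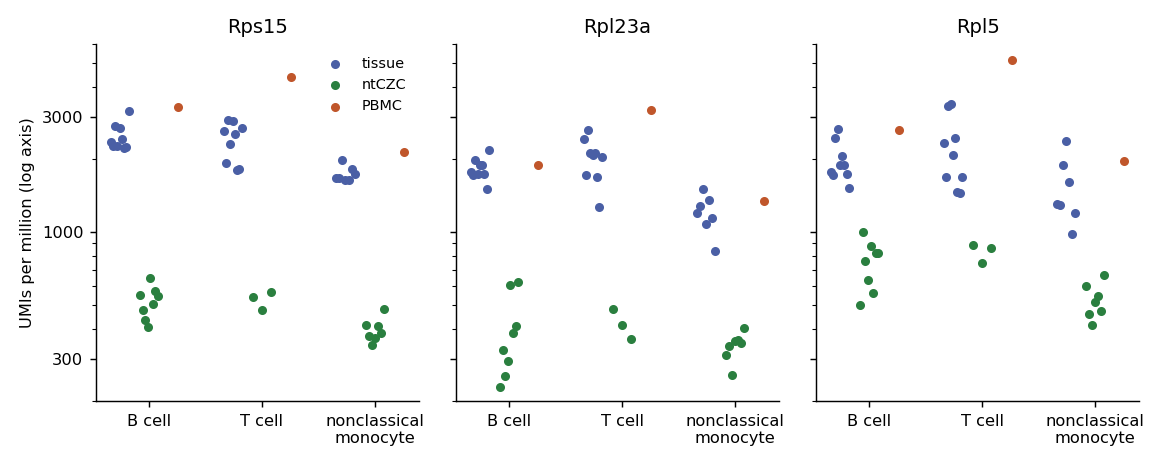
Levels of Rps15, Rpl23a and Rpl5, in CPM on a log axis, by class in ntCZC, tissue and PBMC libraries. Each point is 1 library; every ntCZC library lies below every tissue library, with Rps15 in B cells at 407 to 645 CPM against 2238 to 3164 CPM, and the PBMC library lies among the tissue libraries or above them.

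Other members moved by less. In B cells the largest rises were those of Rpl36al by 1.23, Rpl21 by 1.16 and Rpl29 by 1.15 on the log2 scale. Rpl21 reached 4542 ± 925 CPM against 2097 ± 499 CPM without overlap, and Rpl29 reached 1727 ± 387 CPM against 784 ± 154 CPM without overlap, while Rpl36al, at 363 ± 151 against 166 ± 56.5 CPM, did overlap. In nonclassical monocytes they were Rps28 by 0.76, Rpl36al by 0.75 (adjusted p = 0.0363, edgeR) and Rpl41 by 0.63, all with overlapping libraries. The Rpl36al call in nonclassical monocytes was lost under 6 of the alternatives.

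The stalk genes split. Rplp2 fell in B cells by 0.48 and in nonclassical monocytes by 0.71, and Rplp1 fell in nonclassical monocytes by 0.65 but did not pass in B cells (difference −0.34, adjusted p = 0.0711, edgeR). Rplp0 rose in B cells by 1.14 (adjusted p = 6.94e-04, edgeR), from 2346 ± 482 to 5059 ± 2183 CPM, and did not pass in nonclassical monocytes (difference 0.34, adjusted p = 0.0616, edgeR). There it passed under 13 of 21 alternatives, most of which leave out 1 library. Rps19 rose in B cells by 1.00, and its difference of 0.28 in nonclassical monocytes did not pass, but passed under 11 of the 21 alternatives. Its monocyte libraries did not overlap, at 3107 to 4264 CPM among ntCZCs and 1695 to 2823 CPM in tissue. Rps27 rose by 0.99 and 0.43 in the B cells and nonclassical monocytes, whereas Rps27l did not pass in either, with differences of −0.16 and −0.06. Mitochondrial ribosomal protein genes gave 12 higher and 0 lower of 29 tested in B cells, where 22.4% of all genes were higher and 22.1% lower, and 4 higher and 0 lower of 39 in nonclassical monocytes, where the shares over all genes were 10.8% and 16.2%. In B cells the 41.4% of these genes called in either direction was near the 44.5% of all genes.

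**Figure D5:**
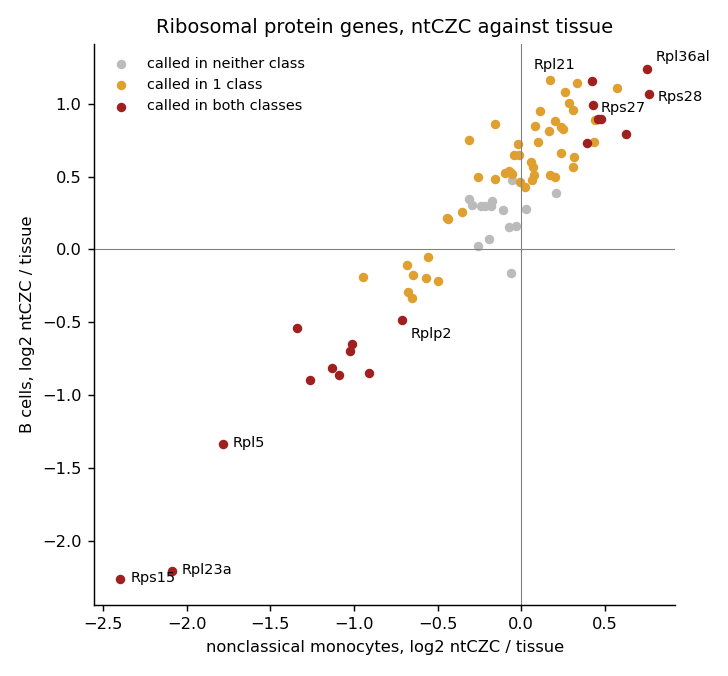
Log2 difference between ntCZC and tissue for each tested member, in B cells and in nonclassical monocytes, from edgeR. Rps15, Rpl23a and Rpl5 lie lowest in both classes, at −2.26, −2.20 and −1.33 in B cells and −2.40, −2.09 and −1.79 in nonclassical monocytes.

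The last comparisons asked whether Nalcn genotype moved the ribosomal protein genes. Among ntCZC nonclassical monocytes the share was 18.3% ± 1.60 in null and 18.2% ± 0.795 in het libraries (n = 3 each; p = 1, exact permutation test, where the smallest possible p is 0.1). Null replicates 1 and 4 were female, whereas null replicate 2, all the het libraries and the wt library in the fit were male. Of 84 members 0 were called by edgeR with sex as a covariate (0 of 7058 genes, 0% in the background), 0 had an unadjusted p under 0.05 where 198 of all genes did, and DESeq2 also called 0. With that covariate the genotype term rests on null replicate 2 as the single male null library, so the absence of calls says little about genotype. The median difference was −0.10 over core members and −0.01 over all genes. Without the covariate edgeR again called 0 members, 2 had an unadjusted p under 0.05 where 157 of all genes did, and the medians were 0.03 and 0.00, but sex and genotype then cannot be told apart.

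In tissue, het and null libraries together were set against wt. The largest difference in share was that of T cells, at 25.5% ± 2.14 (n = 4) against 20.9% ± 2.43 (n = 5). The het and null libraries ran from 24.3% to 28.7% and the wt libraries from 19.1% to 24.6%, with overlap. The difference of 4.56 points gave p = 0.0476 in a two-sided exact permutation test and did not pass after adjustment over 5 classes (adjusted p = 0.238). Without tissue null replicate 3 it was 4.93 points (p = 0.0714, exact permutation test). The median T cell barcode held 1402 UMIs in het and null libraries and 2324 in wt.

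The other classes gave smaller differences. B cells stood at 24.3% ± 1.80 against 22.6% ± 1.29 (p = 0.175), macrophages at 14.6% ± 0.992 against 14.5% ± 2.69 (p = 1) and endothelial cells at 10.2% ± 0.764 against 9.84% ± 1.37 (p = 0.683), all by exact permutation tests over 4 against 5 libraries. Fibroblasts stood at 15.7% ± 1.83 against 14.5% ± 1.53 (p = 0.4, exact permutation test, 4 against 4 libraries). Without tissue null replicate 3 the difference was 1.54 points in B cells, −0.181 in macrophages, 0.239 in endothelial cells and 1.76 in fibroblasts, and 0 members were called in any of the 3 gene tests given next. Of 83 members, 0 were called in B cells, macrophages or endothelial cells (edgeR with sex as a covariate), and 0% of all 6077, 6838 and 11333 genes were. At an unadjusted p under 0.05 there were 15, 2 and 8 members, against 343, 291 and 655 genes in all, and DESeq2 called 0 members. Libraries did not overlap for 9 members (10.8%) in B cells, all higher in het and null, against 2.11% of all genes. In macrophages this held for 0 members against 1.46% of all genes, and in endothelial cells for 3 (3.61%) against 2.28%. The medians over core members were 0.21, 0.05 and 0.16 on the log2 scale, against 0.00, −0.01 and 0.01 over all genes.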

How the data were processed

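Per the labels and the file headers, the authors made 10x 3′ libraries and deposited UMI counts per gene and barcode from Cell Ranger (2.1.1 in the submitters' processing notes, 3.0.2 in the matrix headers) on mm10. Replicates were not pooled. Hashtag tables were not used, so organs were not split. The members and lists were chosen with earlier results of these data known.

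Barcodes that passed (200 or more genes, mt- UMIs not above 25%) were gated to classes when at least 3 of 6 markers were on, a marker being on with at least 1 UMI and a share at least 2 times that over the series, and other classes had too few markers on to compete (at most 0.5 times as many). The marker Siglec5 is not a symbol of the tables. No doublet caller was run. Barcodes in which another class exceeded that limit stayed unassigned, whereas those with fewer markers of another class were kept. UMIs were summed per class and library, with at least 10 barcodes. Shares were compared by exact permutation tests over libraries, two-sided as 2 times the smaller tail, and genes with edgeR 4.0.16 (TMM scaling, filterByExpr, quasi-likelihood test, Benjamini-Hochberg adjustment, threshold 0.05) in R 4.3.3, with DESeq2 1.42.0 as an alternative. The edgeR code was run on simulated counts for some of the gene comparisons. These counts had a single fixed spread and no library effect, so they do not show how the tests perform on these data. CPM are UMIs of a gene per 1000000 UMIs of the class and library. Intervals are exact binomial and, like a floor of 3 counts for a gene at 0, cover counting error only.

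Genes named were up to 3 members with the largest rise and fall in each gene comparison, the 3 furthest from the pool across classes in each direction, and a set list of paralogues with their partners, stalk genes, Rpsa, Rpl5, Rpl11, Rps19, Rps19bp1, Fau and Rack1. One result is not reported here. Of 86 members, 82 to 84 passed the filter on low counts, and those left out were Rpl10l and Rpl39l throughout, Rpl3l except between null and het libraries, and Rps19bp1 between ntCZC and tissue. All 86 identifiers matched the annotation. Replicates differed by more than sampling noise (chi-square per degree of freedom at least 4.75 over 25 pairs).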

Additional observations from a re-analysis of the deposited data

Results flagged for a closer look

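Of 28 class and group sets of 4 to 10 libraries examined, 2 held a library far from the others; chance alone gives about 1 in 20. Among ciliated cells of tissue (n = 8), het replicate 1 stood at a ribosomal protein share of 12.2%, the class mean being 7.90% ± 1.96. Among smooth muscle and pericytes (n = 8), null replicate 2 stood at 12.8%, the class mean being 8.80% ± 1.88.

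The difference between ntCZC and tissue was not the same in the 2 blood classes tested. The B cell share exceeded the nonclassical monocyte share by 11.7 ± 2.84 points within ntCZC libraries and by 7.59 ± 1.01 points within tissue libraries (n = 7 each), a difference of 4.11 points (p = 0.00291, two-sided exact permutation test). Outside mt- UMIs it was 3.58 points (p = 0.00816, exact permutation test).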

How the results depend on the processing

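Leaving out each library in turn gave shares differing by 6.02 to 7.95 points (B cells) and 1.30 to 2.12 (nonclassical monocytes) between ntCZC and tissue, −0.824 to 0.682 between null and het ntCZC monocytes, and, for het and null against wt tissue, 0.871 to 2.23 (B cells), 3.49 to 5.46 (T cells), −0.937 to 0.846 (macrophages), −0.0255 to 0.874 (endothelial cells) and 0.322 to 1.78 (fibroblasts). The T cell p rose above 0.05 without any single library other than tissue wt replicate 1, and with any UMI counted as on (3.63 points, p = 0.111), at least 500 genes (4.58, p = 0.0635) or at least 20 barcodes (4.09, p = 0.0857), all by exact permutation tests. The monocyte difference between ntCZC and tissue was −0.340 points outside mt- UMIs, that between null and het −0.295 with 4 of 6 markers, and that of macrophages by genotype −0.0869 with 4 of 6 markers and −0.207 with any UMI. The causes were not tested.

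Called members numbered 48 to 62 (ntCZC B cells), 26 to 41 (ntCZC monocytes), 73 to 79 (B cells against macrophages), 6 to 14 (T against B cells), 42 to 55 (proximal tubule against endothelial) and 0 to 0 (the 4 genotype tests) when 1 library was left out. Except for the monocyte fit without ntCZC wt replicate 1 given above, the shares over all genes in these fits are not given here. These counts alone therefore do not show whether members moved apart from other genes. The fit of null against het without null replicate 2, the only male null, had no sex covariate and was added after seeing the data. With every library in, edgeR called 1220, 1018, 3881, 1888, 7342 and 0 of all genes, in the same order. DESeq2 called 57, 33, 73, 13, 68 and 0 members, against 1355, 1034, 3769, 1835, 7264 and 0 to 6 of all genes. Without the filter on low counts ntCZC B cells gave 25 (14 higher), and monocytes 18 higher and 14 lower. With 4 of 6 markers T against B cells gave 7, and the share over all genes in that fit is not given here. Core members as library size, an alternative chosen after seeing the data, moved the median of all genes by −0.45 in ntCZC B cells, −0.60 in B cells against macrophages, 0.16 in ntCZC monocytes, 0.28 in proximal tubule, 0.13 in null against het and −0.19 in B cells by genotype. It gave 27 and 36 members called in B cells against macrophages and in proximal tubule, against 4042 and 7116 of all genes. It turned Fau to −0.10, Rack1 −0.17, Rpl11 −0.15, Rpl22l1 −0.16, Rpl3 −0.11, Rpl7 −0.0927, Rplp0 −0.0782, Rplp1 −0.27 and Rps4x −0.20 in B cells, and Rps19 to 0.0432 in proximal tubule. Rplp0 and Rps19 passed in ntCZC monocytes under 13 and 11 of 21 alternatives, among them RLE scaling, DESeq2 and no filter. With the replicate number as a block, null against het monocytes gave 0 members called. Deviations of same-numbered libraries gave correlations of −0.036, 0.018 and 0.080, and those of the other pairs ran from −0.248 to 0.185. So few libraries cannot tell whether a number marks a shared animal or day.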

Other observations

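The 2 tissue libraries whose genotype labels disagreed gave ribosomal protein shares of 26.3% and 25.4% in B cells, 26.9% and 23.5% in T cells, 15.5% and 15.8% in macrophages, 10.2% and 9.45% in endothelial cells and 7.39% and 8.12% in proximal tubule cells. Their Rps15 levels, 2686 and 2744 CPM in B cells and 2675 and 2958 CPM in T cells, lay far above those of every ntCZC library with that class.

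Among ntCZCs Rps27l held 1.63% ± 1.25 of the UMIs of its pair with Rps27 in B cells (n = 8), 9.05% ± 2.00 in classical monocytes (n = 4) and 10.2% ± 3.17 in macrophages (n = 4). The PBMC library gave 1.10% in B cells and 1.34% in T cells.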
